A study of Mus musculus with 4 samples.

Results

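WNT proteins are secreted signals that a cell reads through Frizzled receptors together with Lrp5 or Lrp6, or through Ror1, Ror2 and Ryk. The WNT-producing cell needs the acyltransferase Porcn and the transporter Wls to release them, and secreted proteins of the SFRP, DKK and WIF families hold the signal back while R-spondins strengthen it. In the embryonic ureter, WNT ligands from the epithelium act on the surrounding mesenchyme, where they help to set up the inner layer that later forms smooth muscle.

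The genes described are 50 such WNT components: 19 ligands, 15 receptors and co-receptors, 2 factors of ligand secretion (Porcn and Wls) and 14 secreted modulators. They were taken by gene symbol from the non-control probes of the arrays. All 50 were on the array, of 29875 genes in all, with 59 probes: 41 had 1 probe and 9 had 2. Of the 50, 41 gave a signal well above background often enough to be tested, of 19365 genes tested.

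The material was ureters of NMRI mouse embryos at E14.5 (embryonic day), and RNA was read on 4 two-colour arrays. Each array carried RNA of cDKO (conditional double knockout) ureters in one channel and of control ureters in the other. The cDKO embryos carried cre at 1 Tbx18 allele, Tbx18(cre/+), with both alleles of the FGF receptor genes floxed, Fgfr1(fl/fl) and Fgfr2(fl/fl), so that the receptors are removed where Tbx18, a gene of the ureteric mesenchyme, drives cre. Tbx18 is not known as a gene of the ureteric epithelium. Controls were Fgfr1(fl/?) and Fgfr2(fl/?), with no cre in the label and the other allele of each receptor gene left unstated, so the cre allele itself also differs between the groups. Both channels of an array had the same sex label, female on replicates 1 and 4 and male on replicates 2 and 3. The dyes were swapped on replicates 2 and 4. How many embryos went into a replicate is not in the labels. The p-values therefore cover only the spread between these 4 extract pairs, which may be technical. In whole ureters, fewer cells of a type and less RNA per cell cannot be told apart.

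Median spot signals ranged over 139 to 383 for cDKO and 169 to 417 for control RNA, with no saturated spot. Replicates 1 and 2 lay on slide 1 and replicates 3 and 4 on slide 2, read on different scanners. The ratios of cDKO over control across all genes correlated between arrays at r = 0.507 on slide 1 and at r = 0.112 on slide 2, so the slide 1 pair was the more even. Replicates 2 and 3 had r = 0.00559. Fgfr1 gave a log2 ratio of -0.40 ± 0.10 (SE, n = 4, limma adjusted p = 0.117), and Fgfr2 gave 0.59 ± 0.07 (adjusted p = 0.0356), each at its brightest probe. Where each gene is deleted was not stated in the labels, and probes outside the deletion check nothing. The direction of every ratio thus rests on the dye labels.

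The question was which WNT components differed between cDKO and control ureters. A level is the log2 intensity of a channel after normalization, and a log2 ratio is cDKO over control. Genes with a limma adjusted p under 0.05, over all 19365 tested, were called. No WNT component was called, beside 0.852% of all genes (0.553% as higher and 0.3% as lower in cDKO ureters). At so small a share, a count of 0 among 41 genes says little of the components. Over 17 alternative settings the count lay between 0 and 10. It was 10 with a slide term in the fit, where 2418 of all genes were called. In the fit used here, the gene nearest to a call was the ligand gene Wnt9b, 1.85-fold higher in cDKO ureters with an adjusted p of 0.0524. At an unadjusted p under 0.05, 14 of the 41 measured genes (34.1%) were higher in cDKO ureters, against 11.7% of all genes, and 2 (4.88%) were lower, against 7.88% of all genes. The 2 lower ones were the antagonist Sfrp1 and the receptor Fzd8.

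The median log2 ratio of the 41 genes was 0.17, beside 0.009 for all genes, and 29 of 41 were above 0. Without replicate 2 the median was 0.10, and without the other replicates in turn it was 0.12 to 0.20. Such fits, here and below, kept a term for the dye. The array left alone in its dye order then weighed as much as the other arrays together, so these ratios are not plain means of the arrays left. By role, the median was 0.02 for the 12 measured ligands, 0.21 for the 15 receptors and co-receptors, 0.15 for the 2 secretion factors and 0.19 for the 12 measured modulators. The ratio had the same sign on all 4 arrays for 17 of 41 genes (41.5%), against 25.2% of all genes. Of these, 13 were higher in cDKO ureters: Wnt9b, Wnt6, Wnt5a, Ror2, Ror1, Fzd10, Fzd3, Wif1, Rspo3, Sfrp4, Rspo1, Sfrp5 and Wls. The other 4, Wnt2, Wnt1, Fzd8 and Sfrp1, were lower. Wnt2 lay near background and was tested only through its control channels, so its place among the lower genes carries little weight. The levels of the 4 cDKO and 4 control channels did not overlap for 4 genes (9.76%), near the 8.04% of all genes. The 95% confidence interval of the ratio lay within 2-fold in either direction for 39 of 41 genes, all but Wnt9b and Dkk1.

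**Figure D1:**
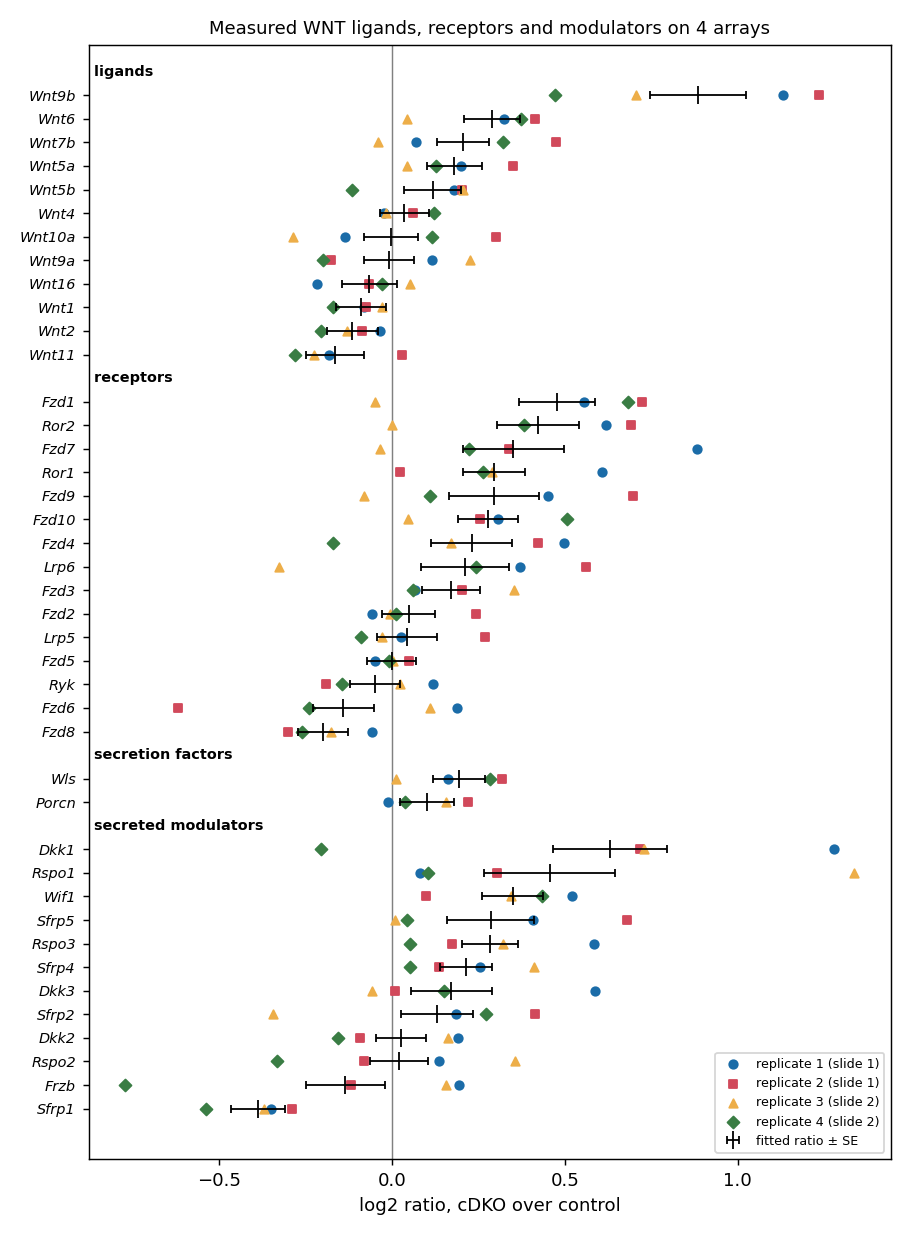
Log2 ratio of cDKO over control (horizontal axis) for the 41 measured WNT components, grouped by role and ordered by fitted ratio; symbols mark the 4 arrays and the black mark with its bar is the fitted ratio ± SE (n = 4). Wnt9b lies furthest to the right at 0.89, Sfrp1 lies furthest to the left at -0.39, and most receptors lie right of 0.

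Among the ligands, Wnt9b stood apart. It encodes an epithelial ligand of the nephric duct and ureter that signals to neighbouring mesenchyme. Its probe at chr11:103588882-103588941 (mm9, the build of all probe positions) starts with the 30 bases below, shown with the probes of Sfrp1 and Dkk1 because these 3 lie at the ends of the range; no base is marked.
Wnt9b: tgtctttctagccaaagcttcctctctcaa
Sfrp1: ttaaaatagtcattccggagagtcagggaa
Dkk1: tactgtgttgtaaatcctcagtgtggcact
The exon or UTR in which a probe lies was not determined here.

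The Wnt9b level was 10.02, 10.07, 10.03 and 9.94 in the cDKO channels of replicates 1 to 4, against 8.89, 8.83, 9.33 and 9.47 in the control channels. The cDKO channels were alike and every one of them was above every control channel; the control channels of slide 2 were higher than those of slide 1. The log2 ratio was 0.89 ± 0.14 (SE, n = 4), or 1.85-fold with a 95% confidence interval of 1.46 to 2.33, and the adjusted p of 0.0524 just missed the threshold. It was 1.18 on slide 1 and 0.59 on slide 2. Wnt9b was called in 9 of 17 alternative settings, among them without replicate 3 (0.99, adjusted p = 0.0365) and without replicate 4 (1.08, adjusted p = 0.0205), but not without replicate 1 (0.78, adjusted p = 0.146) or replicate 2 (0.69, adjusted p = 0.0757). Over the 17 settings the adjusted p lay between 3.08e-04 and 0.387 and the ratio was above 0 throughout.

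Wnt6 and Wnt7b also encode ligands made by the ureteric epithelium. The Wnt6 level (chr1:74831461-74831520) was 9.31, 9.23, 9.38 and 9.72 in the cDKO channels, against 8.98, 8.82, 9.34 and 9.35 in the control channels. The cDKO channel was the brighter on every array, by almost nothing on replicate 3 (log2 ratio 0.04), and the groups overlapped. The fitted log2 ratio was 0.29 ± 0.08 (adjusted p = 0.140). The Wnt7b level (chr15:85366896-85366955) was 9.70, 10.01, 10.05 and 10.19 in the cDKO channels, against 9.63, 9.54, 10.09 and 9.87 in the control channels. Replicates 2 and 4 carried the difference, replicate 3 was slightly the other way, and the groups overlapped. The fitted ratio was 0.21 ± 0.08 (adjusted p = 0.213).

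Wnt5a encodes a ligand known mostly for signalling without beta-catenin, through Ror2. Its level (chr14:29336664-29336723) was 11.06, 11.24, 10.87 and 10.96 in the cDKO channels, against 10.86, 10.90, 10.82 and 10.83 in the control channels. All 4 arrays were on the cDKO side, but the lowest cDKO channel lay among the controls. The fitted ratio was 0.18 ± 0.08 (adjusted p = 0.278).

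The other 8 measured ligands had log2 ratios between -0.16 (Wnt11, a ligand of the ureteric tip) and 0.12 (Wnt5b), with adjusted p between 0.329 and 0.994. Wnt4, a ligand of the kidney and ureter mesenchyme, had 0.04, with a 95% confidence interval from -0.14 to 0.21. Wnt10a, Wnt9a, Wnt16, Wnt1 and Wnt2 had 0.00, -0.01, -0.06, -0.09 and -0.11.

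The other 7 ligands on the array, Wnt2b, Wnt3, Wnt3a, Wnt7a, Wnt8a, Wnt8b and Wnt10b, did not pass the filter on dim probes. Wnt2b, Wnt3, Wnt3a and Wnt8a were not well above background on any array in either group. Wnt10b was above background in 2 cDKO and 1 control channels, and Wnt7a and 1 of the 2 Wnt8b probes in 2 cDKO and 3 control channels. No component was undetected in one group and detected throughout the other. Of the measured components, Wnt2 and Rspo2 were well above background in 3 cDKO and 4 control channels, and Fzd5 in 4 cDKO and 3 control channels. Each of them lay near background and passed the filter through 1 group alone.

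Wnt1 shows how far the detection of a gene can turn on its probe. Its probe at chr15:98623276-98623335 was not well above background on any array, with a mean level of 6.34 in cDKO and 6.41 in control channels. Its ratios on replicates 1 to 4, read at background, were -0.02, -0.11, -0.06 and -0.08. Its probe at chr15:98624201-98624260 was well above background on all 4 arrays in both groups, with mean levels of 9.57 in cDKO and 9.66 in control channels and a ratio of -0.09. The first 30 bases of each are shown because these probes carry the same gene name and differ in detection.
Wnt1, not above background: tgctgccacgtcagctgccgcaactgcacg
Wnt1, above background: agtggctcctcgcccccaccaatgtagtat

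Of the 9 components with 2 probes, 6 had both kept. The brighter probe was used and the other gave -0.12 beside 0.04 for Wnt4, 0.25 beside 0.05 for Fzd2, 0.09 beside 0.00 for Fzd5, 0.06 beside 0.35 for Fzd7, -0.03 beside 0.21 for Lrp6, and 0.18 beside 0.30 for Ror1. The probes of Wnt4 and of Lrp6 thus differed in sign, and those of Fzd7 and Fzd2 in size.

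Wnt9b, Wnt6 and Wnt7b are genes of the epithelium, so urothelial markers are given beside them. Of 10 markers measured, 2 fell (Upk1b, log2 ratio -1.43, and Krt20, -0.62) and the list's median ratio was -0.59. Of the other 8, none called, Upk3a had -0.91 (adjusted p = 0.0558), Grhl3 -0.58 (adjusted p = 0.0532), Upk2 and Upk1a each -0.59 and Trp63 -0.03, while the epithelial signal gene Shh had 0.53 (adjusted p = 0.120), the basal keratin gene Krt5 0.12 and the epithelial regulator Foxa1 0.17. The linear levels of the 10 summed to 30444 to 41055 per cDKO channel and 35171 to 41895 per control channel. The Foxa1 probe alone made up 61.2% to 66.2% of that sum in cDKO and 50.7% to 52.8% in control channels. Without it, a sum chosen after the values were seen, the 9 other markers came to 10563 to 14283 per cDKO channel and 16617 to 20501 per control channel, which do not overlap. None of the 10 was at background, and the part of epithelial content in the ligand values was not tested.

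**Figure D2:**
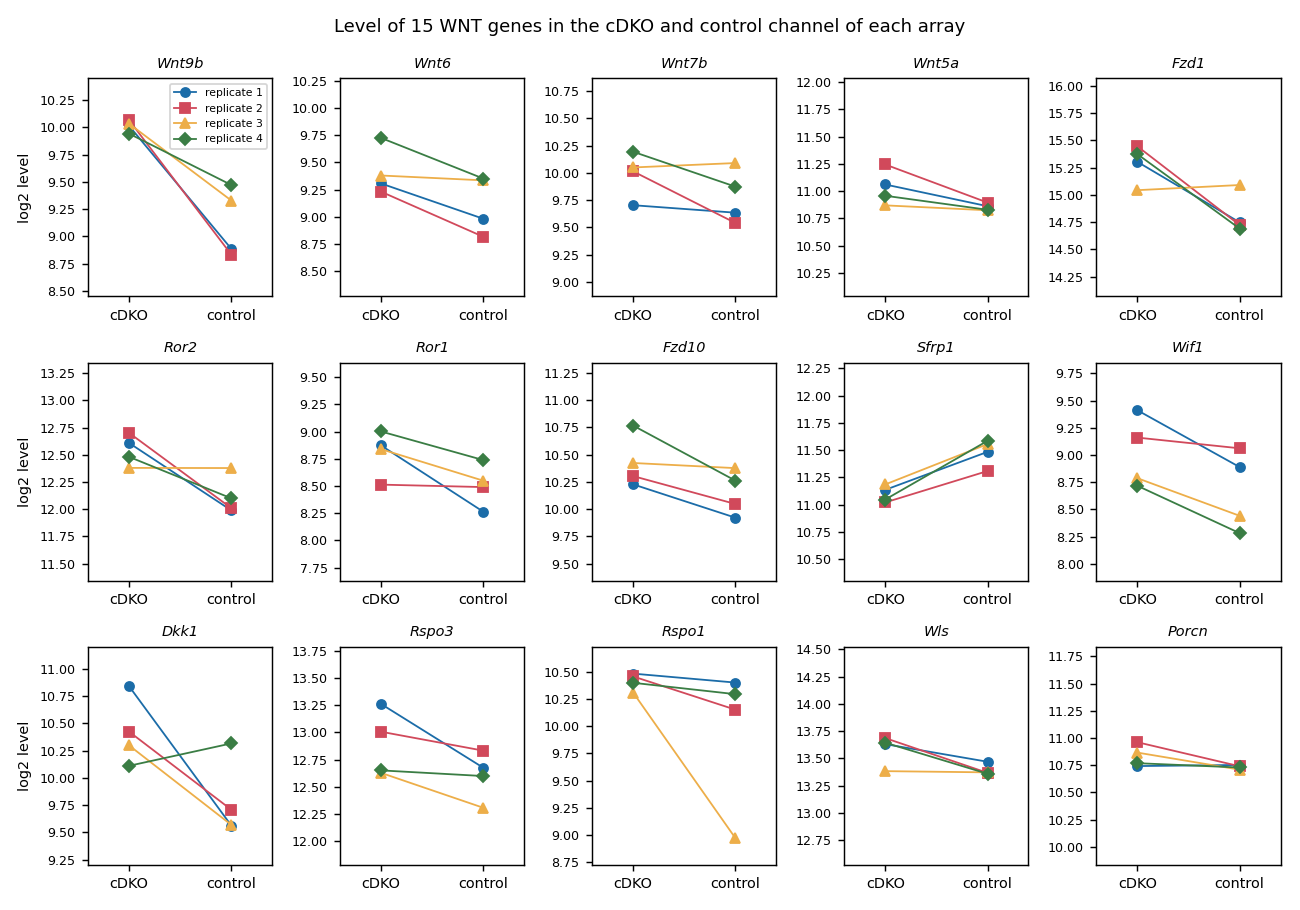
Log2 level in the cDKO (left) and control (right) channel of each array for 15 WNT components, with a line per array; the vertical axes differ in position and share 1 span. Wnt9b and Sfrp1 show 4 lines sloping the same way and groups that do not overlap, while for Dkk1 replicate 4 and for Fzd1 replicate 3 slope against the other arrays.

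The receptors were all measured, 10 Frizzleds and 5 co-receptors or other receptors. The largest ratio belonged to Fzd1, a Frizzled receptor of the beta-catenin pathway. Its level (chr5:4754003-4754062) was 15.30, 15.45, 15.04 and 15.37 in the cDKO channels, against 14.75, 14.72, 15.09 and 14.69 in the control channels. On replicates 1, 2 and 4 the cDKO channel was clearly the brighter, and on replicate 3 the channels were alike, so that the groups overlapped. The log2 ratio was 0.48 ± 0.11 (SE, n = 4; 1.39-fold, 95% confidence interval 1.16 to 1.67; adjusted p = 0.101), and it was called in 3 of 17 settings. Without replicate 3 it was 0.63 and called (adjusted p = 0.0460), and without replicate 1 it was 0.33 (adjusted p = 0.432), without replicate 2 0.47 (adjusted p = 0.196) and within slide 2 0.32 (adjusted p = 0.844).

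Ror2 and Ror1 encode tyrosine kinase receptors that bind Wnt5a. The Ror2 level (chr13:53204795-53204854) was 12.61, 12.70, 12.38 and 12.48 in the cDKO channels, against 11.99, 12.01, 12.38 and 12.10 in the control channels. The groups did not overlap, but only barely, because replicate 3 read the same in both channels. The ratio was 0.42 ± 0.12 (adjusted p = 0.142), 0.66 on slide 1 and 0.19 on slide 2. The Ror1 level (chr4:100116284-100116343) was 8.87, 8.51, 8.84 and 9.00 in the cDKO channels, against 8.26, 8.49, 8.55 and 8.74 in the control channels. All 4 arrays were on the cDKO side, replicate 2 by almost nothing, and the groups overlapped; the ratio was 0.30 ± 0.09 (adjusted p = 0.160).

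Fzd10 had a level (chr5:129109798-129109857) of 10.23, 10.30, 10.42 and 10.77 in the cDKO channels, against 9.92, 10.05, 10.38 and 10.26 in the control channels. Every array was on the cDKO side, replicate 3 by little, the groups overlapped, and slide 2 was brighter in both groups. The ratio of this Frizzled gene was 0.28 ± 0.09 (adjusted p = 0.166). Its mean was 0.28 on each slide, from 0.31 and 0.26 on slide 1 but 0.05 and 0.51 on slide 2.

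Of the other 11 receptors, ratios ranged from -0.20 to 0.35 and adjusted p from 0.214 to 0.997. Fzd8, at the low end, had ratios of -0.06, -0.30, -0.18 and -0.26 on replicates 1 to 4, and its cDKO channels lay below all control channels, with mean levels of 8.26 ± 0.09 in cDKO and 8.46 ± 0.03 in control channels (SD, n = 4 each). Fzd7 had 0.88 and 0.34 on slide 1 but -0.04 and 0.22 on slide 2. Lrp6, which with Lrp5 carries the beta-catenin signal across the membrane, had 0.37, 0.56, -0.33 and 0.24, and Lrp5 had a fitted ratio of 0.04. Fzd5, Fzd2 and Ryk had fitted ratios of 0.00, 0.05 and -0.05, Fzd3, Fzd4 and Fzd9 had 0.17, 0.23 and 0.29, and Fzd6 had -0.14.

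The secretion factors were both measured. Wls had a level (chr3:159597867-159597926) of 13.63, 13.69, 13.38 and 13.64 in the cDKO channels, against 13.47, 13.37, 13.37 and 13.36 in the control channels. The control channels were close together and the cDKO channels of replicates 1, 2 and 4 were brighter than any of them. The ratio was 0.19 ± 0.07 (adjusted p = 0.223). Porcn had a level (chrX:7770977-7771036) of 10.74, 10.96, 10.87 and 10.77 in the cDKO channels, against 10.75, 10.74, 10.71 and 10.73 in the control channels. The groups overlapped, and the ratio was 0.10 ± 0.08 (adjusted p = 0.524).

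The secreted antagonists had ratios of both signs. Sfrp1 encodes a soluble Frizzled-like protein that binds WNTs outside the cell. Its level (chr8:24559438-24559497) was 11.14, 11.02, 11.18 and 11.05 in the cDKO channels, against 11.48, 11.31, 11.56 and 11.59 in the control channels. Every cDKO channel was below every control channel, and the 4 arrays were even, with ratios of -0.35, -0.29, -0.37 and -0.54. The fitted ratio was -0.39 ± 0.08 (SE, n = 4; 95% confidence interval -0.58 to -0.20; adjusted p = 0.0832), the lowest among the 41 genes. It was called in 1 of 17 alternatives, with a slide term in the fit (adjusted p = 0.0130), and its adjusted p reached 0.592.

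Dkk1 encodes an antagonist that blocks Lrp5 and Lrp6 and is itself a target of the beta-catenin pathway. Its level (chr19:30621424-30621483) was 10.84, 10.42, 10.30 and 10.11 in the cDKO channels, against 9.56, 9.71, 9.57 and 10.32 in the control channels. Replicates 1 to 3 were on the cDKO side by log2 ratios of 1.28, 0.72 and 0.73, and replicate 4 was on the other side by -0.21. The fitted ratio was 0.63 ± 0.16 (1.55-fold, 95% confidence interval 1.18 to 2.04; adjusted p = 0.123). Without replicate 4, Dkk1 was called, at 0.86 (adjusted p = 0.0371), but without replicate 1 it was 0.49 (adjusted p = 0.473) and without replicate 2 0.40 (adjusted p = 0.232). Over 17 settings its adjusted p lay between 0.00224 and 0.890, with 4 calls. Its ratio was 1.00 on slide 1 and 0.26 on slide 2, and that difference had the lowest adjusted p of the 41 genes for such a difference, 0.0796.

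Wif1 encodes another WNT-binding antagonist. Its level (chr10:120537079-120537138) was 9.41, 9.16, 8.79 and 8.72 in the cDKO channels, against 8.89, 9.06, 8.44 and 8.28 in the control channels. Each array was on the cDKO side while both groups were dimmer on slide 2, so the groups overlapped although the ratios on the slides were alike, 0.31 and 0.39. The fitted ratio was 0.35 ± 0.09 (adjusted p = 0.116).

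R-spondins strengthen WNT signalling by keeping Frizzleds at the cell surface. The Rspo3 level (chr10:29172930-29172989) was 13.26, 13.01, 12.63 and 12.65 in the cDKO channels, against 12.68, 12.83, 12.31 and 12.60 in the control channels. All 4 arrays were on the cDKO side, replicate 4 by little, and the groups overlapped; the ratio was 0.28 ± 0.08 (adjusted p = 0.146). The Rspo1 level (chr4:124686270-124686329) was 10.48, 10.46, 10.31 and 10.40 in the cDKO channels, against 10.40, 10.15, 8.97 and 10.29 in the control channels. Here 1 channel set the value: the control of replicate 3 was far below the other 7, and its ratio of 1.34 stood beside 0.08, 0.31 and 0.10 on the other arrays. The fitted ratio of Rspo1 was 0.46 ± 0.19 (adjusted p = 0.253), and it was 0.14 without replicate 3 and 0.77 without replicate 1, called in neither case. Markers of neighbouring tissue did not all follow in that control channel. Wt1, a gene of mesothelium and kidney, read 12.29 there, below 12.81, 13.21 and 13.02 in the other controls, and the nephron progenitor gene Six2 read 10.02, below 11.61, 11.24 and 11.38. The mesothelial gene Msln read 11.44, the highest of the controls, whose others read 11.29, 11.18 and 11.36. Of the other genes on the mesothelial and nephron lists, Gpm6a, Ret and Lhx1 were also lowest in that channel among the controls. Upk3b, Pax8, Etv5, Cited1 and Wnt11 were not. The part of tissue content in the Rspo1 value was not tested.

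The other 7 measured modulators had ratios between -0.13 and 0.29 and adjusted p between 0.196 and 0.928. Sfrp4 and Sfrp5 were on the cDKO side on all 4 arrays, with fitted ratios of 0.21 and 0.29. Dkk3, Sfrp2, Dkk2 and Rspo2 had 0.17, 0.13, 0.03 and 0.02. Frzb had -0.13, with ratios of 0.19, -0.12, 0.16 and -0.77 on replicates 1 to 4. Dkk4 and Rspo4 were not well above background on any array.

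The slides were also read separately. The median ratio of the 41 components was 0.19 on slide 1 and 0.03 on slide 2, beside 0.003 and 0.008 for all genes. Ratios were above 0 for 30, 30, 25 and 24 of the 41 on replicates 1 to 4. The sign was the same on both slides for 33 of 41; the other 8 were Wnt16, Wnt9a, Wnt10a, Lrp6, Lrp5, Fzd5, Sfrp2 and Frzb. When the difference between slides was tested in the fit, it passed the threshold for 0 of the 41 genes, beside 0.893% of all genes. At so small a share that count says little. At an unadjusted p under 0.05 the slide difference stood for 8 of the 41, against 14.3% of all genes. The difference between sex labels passed for 0 of the 41 and for 0% of all genes, so that count says nothing of the components. At an unadjusted p under 0.05 it stood for Rspo1 alone, against 1.07% of all genes. These 2 fits left 1 residual degree of freedom.

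**Figure D3:**
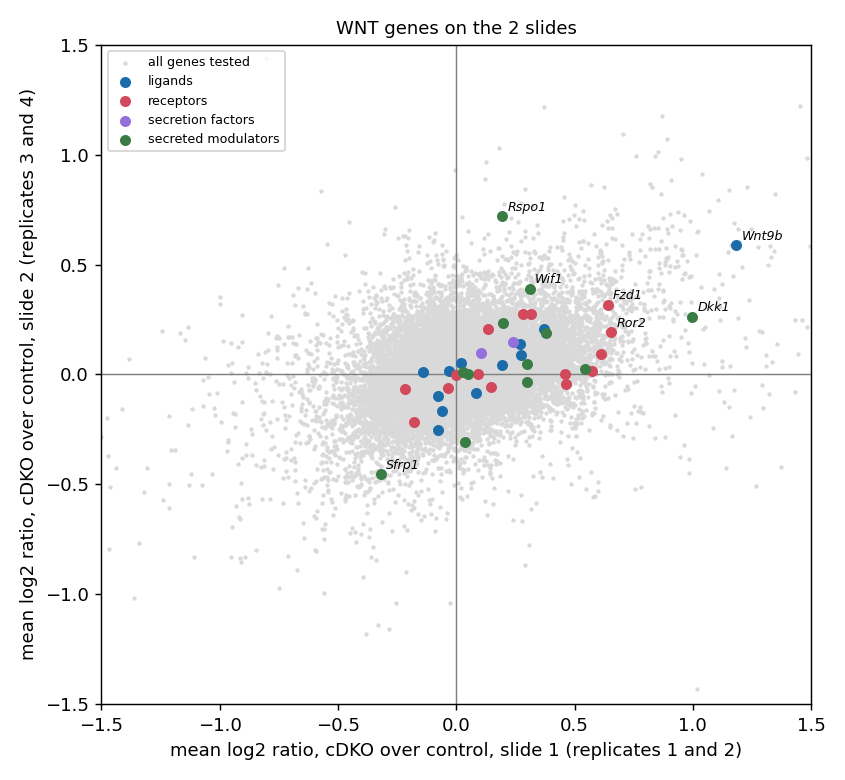
Mean log2 ratio of cDKO over control on slide 1 (horizontal axis, replicates 1 and 2) and slide 2 (vertical axis, replicates 3 and 4); grey points are all genes tested and coloured points are the 41 WNT components by role, 7 of them named, with 39 genes outside the axes. Wnt9b lies at 1.18 and 0.59 and Sfrp1 at -0.32 and -0.45, while a row of receptors lies right of 0 on slide 1 and near 0 on slide 2.

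The remaining genes of the pathway were read from a list of 37 genes, of which 34 were measured (Kremen2, Lgr6 and Sost were not). Here 3 genes rose, Sp5, Axin2 and Sostdc1, and none fell, against 0.852% of all genes called in either direction; without replicate 1 or 2, Sp5 alone was called, and without replicate 4, 5 genes were. At an unadjusted p under 0.05, 14 of the 34 were higher in cDKO ureters, against 11.7% of all genes. At that threshold 1 of the 34 was lower, against 7.88% of all genes. The median ratio was 0.26, beside 0.009 for all genes. The list was chosen with earlier results of these data known, and the rises of Sp5 and Axin2 were among them.

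Sp5 encodes a transcription factor switched on by the beta-catenin pathway. Its level was 9.23, 9.12, 9.52 and 9.63 in the cDKO channels, against 7.61, 7.42, 8.41 and 8.28 in the control channels. Every cDKO channel was above every control channel, and both groups were brighter on slide 2. The ratio was 1.45 ± 0.11 (SE, n = 4; adjusted p = 0.0213), or 2.72-fold with a 95% confidence interval of 2.27 to 3.28.

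Axin2 encodes a scaffold of the complex that destroys beta-catenin and is a feedback target of the pathway. Its level was 9.81, 9.66, 9.92 and 9.82 in the cDKO channels, against 8.87, 8.96, 9.35 and 9.07 in the control channels. The groups did not overlap, and the ratio was 0.74 ± 0.09 (adjusted p = 0.0338). A second Axin2 probe was far dimmer, with a mean log2 intensity of 6.97 against 9.43. It gave 0.21 ± 0.08 (adjusted p over probes = 0.226), the same sign, so the call and the size of the rise rest on the brighter probe. The call was lost without replicate 1 (adjusted p = 0.102) and without replicate 2 (adjusted p = 0.0610).

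Sostdc1 encodes a secreted protein that binds BMPs and WNT co-receptors. Its level was 9.35, 9.41, 10.12 and 9.70 in the cDKO channels, against 8.80, 9.06, 9.33 and 9.28 in the control channels. The lowest cDKO channel was barely above the highest control channel, and the ratio was 0.53 ± 0.08 (adjusted p = 0.0482). A second probe gave 0.65 ± 0.07 (adjusted p over probes = 0.0355). Its call was lost without any 1 of the 4 replicates, with adjusted p from 0.0565 to 0.129. Among 17 alternative settings, Sp5 was called in 14, Axin2 in 11 and Sostdc1 in 8.

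The receptors that R-spondins and DKK proteins use were not called. Lgr5, a receptor of R-spondins, had 0.40 ± 0.08 (adjusted p = 0.0849), and Kremen1, a receptor of DKK proteins, had 0.29 ± 0.08 (adjusted p = 0.143). In the cytoplasm, the kinases Csnk1a1 and Gsk3b of the destruction complex had 0.31 (adjusted p = 0.129) and 0.29 (adjusted p = 0.218), and the median of 9 genes was 0.07. In the nucleus, the co-activators Pygo1 and Bcl9 had 0.36 (adjusted p = 0.100) and 0.43 (adjusted p = 0.117), and the median of 7 genes was 0.34. Rnf43, the ligase that removes Frizzleds and that R-spondins restrain, had 0.49 ± 0.08 (adjusted p = 0.0532). Cthrc1, a secreted protein reported to favour WNT binding to Ror2, was the lower one, with -0.60 ± 0.11 (adjusted p = 0.0669). Ctnnb1, which encodes beta-catenin itself, had 0.07 (adjusted p = 0.678).

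**Figure D4:**
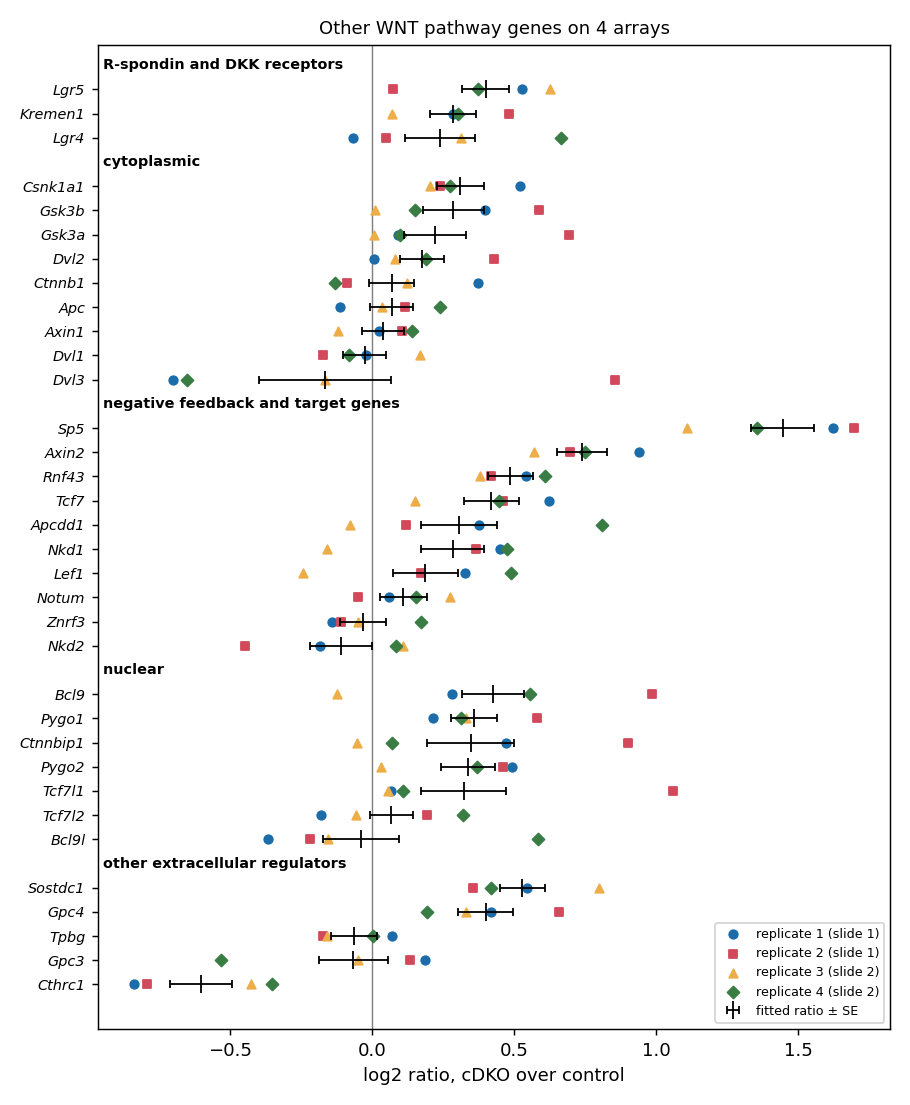
Log2 ratio of cDKO over control (horizontal axis) for the 34 measured other genes of the WNT pathway by sub-list; symbols mark the 4 arrays and the black mark with its bar is the fitted ratio ± SE (n = 4). Sp5 stands alone at 1.45, Axin2 follows at 0.74, and Cthrc1 is the lowest at -0.60.

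Promoters were read for the motif of TCF factors, the DNA-binding partners of beta-catenin, spelled CTTTGAT or CTTTGTT on either strand. RefSeq promoter windows (GRCm38.p6, 250 bases before to 50 after the start) were matched for 33 of the 50 components, and 5 of these (15.2%) held the motif: Wnt3, Wnt11, Wnt5b, Fzd7 and Dkk1. Of all 27025 genes with a window, 10.6% held it. The 250 bases before the start are shown for Sp5, the pathway target that rose most, for Dkk1, the modulator with the largest ratio, and for Wnt9b, the ligand with the largest ratio. Each is written 5′ to 3′ on the strand of its gene, and capitals mark the motif.
Sp5, chr2:70474673-70474922, plus strand: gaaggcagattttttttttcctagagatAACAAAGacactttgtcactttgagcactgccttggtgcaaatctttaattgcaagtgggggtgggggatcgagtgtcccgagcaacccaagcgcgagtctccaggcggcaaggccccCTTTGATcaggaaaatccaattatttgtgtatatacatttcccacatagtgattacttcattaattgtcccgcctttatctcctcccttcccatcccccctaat
Dkk1, chr19:30549497-30549746, minus strand: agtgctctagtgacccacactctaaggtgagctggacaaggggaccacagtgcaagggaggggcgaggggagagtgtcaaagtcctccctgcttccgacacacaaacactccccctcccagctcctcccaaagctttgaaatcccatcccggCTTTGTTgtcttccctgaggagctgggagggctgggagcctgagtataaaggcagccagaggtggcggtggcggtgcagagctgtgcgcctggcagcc
Wnt9b, chr11:103749822-103750071, minus strand: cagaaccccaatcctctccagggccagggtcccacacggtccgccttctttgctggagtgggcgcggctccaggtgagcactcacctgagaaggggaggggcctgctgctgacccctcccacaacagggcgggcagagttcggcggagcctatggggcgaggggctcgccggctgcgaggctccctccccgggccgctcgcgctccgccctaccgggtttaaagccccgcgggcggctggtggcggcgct
Sp5 had a motif on each strand, 222 and 104 bases before its start, and Dkk1 had 1, 98 bases before its start. The Wnt9b window held none, which says only that these letters are not in it.

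Markers of the mesenchyme and of other cell types were read on the same arrays. The 5 ureteric mesenchyme markers had a median ratio of 0.26 with none called, and their linear levels summed to 86961 to 100119 per cDKO channel and 71571 to 89796 per control channel. Tcf21 went the other way, with -0.27 and the lower side on all 4 arrays. The other 4 of this list, Bmp4, Foxd1, Tbx18 and Tshz3, had 0.25 to 0.38. Smooth muscle markers had a median of 0.05 with none called. Of the endothelial, erythroid and leukocyte lists, 1, 2 and 1 of 5 genes fell, with medians of -0.43, -0.34 and -0.24, and of 4 mesothelial markers 1 fell (Msln). Nephron and ureteric tip markers had a median of 0.12 and nerve and glia markers of -0.02, with none called. No marker of any list was below background on all arrays, and the part of these lists in the values of the WNT components was not tested.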

How the data were processed

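RNA of cDKO and control ureters was compared directly on 4 two-colour arrays. Per the labels' protocols, 150 ng of total RNA per channel was amplified and labelled. Per the submitters' processing notes, the scanner software was Agilent Feature Extraction 10.7.3.1. The deposited scanner files give mean and background intensity per spot, not yet normalized, and, per the file headers, a log10 ratio (red over green). A value table deposited by the authors holds a signed fold per probe, a score with nothing inside -1 to 1; its correlation with the ratios computed here (0.909 to 0.945) settled the direction as cDKO over control, and each column's median is 1. Its centring, and why 10624 to 11152 of 39429 probes per array stand at exactly 1, are unstated in the labels and headers, so the alternative that uses this table holds many ratios of no difference whose origin is unknown.

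Intensities were corrected with normexp (offset 50) and loess (span 0.3), and the 4 spots of a probe were averaged without outlier-marked ones. Probes needed 3 or more of 4 spots flagged well above background on each of the 4 arrays, in either group, to be kept, and the brightest kept probe stood for a gene. Ratios were fitted with limma 3.58.1 in R 4.3.3 with a dye term, two-sided, with Benjamini-Hochberg adjustment over 19365 genes. The fit had 2 residual and 4.53 prior degrees of freedom. Levels are log2 intensities after quantile scaling between arrays; levels of different probes are not comparable. The number of arrays limits the precision.

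The components, the lists and the tests were chosen with earlier results of these data known. Values on all arrays are given for called components, and in each role group for the 4 with the smallest p and those with the same sign on all arrays and a log2 ratio of at least 0.3 in size. Of the pathway list, the called genes are named, or the 2 with the smallest p per sub-list. Other components, Rnf43, Cthrc1, Ctnnb1 and the markers were named after their values were seen. The alternatives changed terms of the fit, arrays, background correction, normalization, value source, filter and probe rule. The fit was tested on simulated data, where it called 52% of 1.5-fold and 100% of 2-fold changes, with 3.83% of calls false. Changes of 1.5-fold or less can thus be missed, and on the real arrays ratios above that, 1.85-fold for Wnt9b and 1.55-fold for Dkk1, were not called. The simulated errors were independent between arrays and held no slide difference, so these shares may not hold for the real arrays.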

Additional observations from a re-analysis of the deposited data

Results flagged for a closer look

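Of the 41 measured WNT components, 1 was flagged by Dixon's rule for an outlying array. The rule weighs the gap between an array and its nearest neighbour against the range of the arrays. It thus does not measure how far off an array is in size. The ligand gene Wnt5b had log2 ratios of 0.18, 0.20 and 0.20 on replicates 1 to 3 and -0.12 on replicate 4. Its fitted ratio was 0.12 ± 0.08 (SE, n = 4), and its limma adjusted p was 0.485. The nominal share flagged by this rule, for independent normal values, is about 5% of genes, and here it was 2.44% (1 of 41). Some arrays that the rule did not flag were further off in size. On replicate 3, Rspo1 had 1.34 beside 0.08, 0.31 and 0.10 on replicates 1, 2 and 4. Fzd1 had -0.05 there, beside 0.56, 0.72 and 0.68. The share over all genes tested was not computed, and the cause of the Wnt5b value was not tested.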

How the results depend on the processing

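Under 17 alternatives, all planned, the ratios of the 15 components given array by array, and of Sp5, Axin2 and Sostdc1, kept their sign. Of the 41 measured components, 12 changed sign under at least 1 alternative (Dkk2, Frzb, Fzd2, Fzd5, Lrp5, Lrp6, Rspo2, Sfrp2, Wnt10a, Wnt16, Wnt4 and Wnt9a), as did 9 of the 34 other pathway genes. Within slide 2, Lrp6 was at -0.04 in place of 0.21 and Sfrp2 at -0.04 in place of 0.13. The count of WNT components called, 0 here, was 10 with a slide term added (9 higher in cDKO, with Sfrp1 lower), 4 within slide 1 (Dkk1, Fzd1, Ror2 and Wnt9b), 2 with median centring (Dkk1 and Wnt9b) and 1, Wnt9b, each without the dye term, without background correction, with the stricter filter and with the mean over probes. It was 0 with the sex term, within slide 2, with scaling between arrays, from the scanner's ratios, from the authors' table and without the filter, and 0 to 2 without 1 replicate (Fzd1 and Wnt9b without replicate 3, Dkk1 and Wnt9b without replicate 4). Over all genes the slide term gave 2418 calls in place of 165; it leaves 1 residual degree of freedom and takes the slide difference out of the error. The median ratio of the components, 0.17 here, was 0.0266 within slide 2, 0.0811 without the filter and 0.114 with median centring. The count of other pathway genes called, 3 here, was 15 with the slide term, 5 without the dye term, and 0 with the sex term, within slide 2 and without the filter, and 1 to 5 without 1 replicate. Over all genes the count was 258 without the dye term, 551 within slide 1, 0 within slide 2, 2 with the sex term, 255 with median centring and 1 without the filter, and 34 to 403 without 1 replicate. The cause of these shifts was not tested. Fits within a slide rest on 2 arrays. Fits without 1 replicate kept the dye term, weighed the arrays unequally and had fewer residual degrees of freedom than the fit to all arrays. Without the filter, dim probes near background enter, among them the 9 components not measured otherwise. No paired analysis was possible beyond the arrays, because each array is itself a pair of a cDKO and a control extract.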
